A study of Sus scrofa with 8 samples.

Results

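The trophoblast regulators described here are 9 genes, TFAP2A, TFAP2B, TFAP2C, GATA2, GATA3, DAB2, ENPEP, PTGES and FURIN. They were chosen by symbol from the pig Ensembl gene names, and the choice was made with values of the same RNA-seq comparison in view, so their own values are given as a description. Where 1 of the 9 is said to be called or not, this only places it by the limits set for all genes, and it is not a test of that gene. The deposited count table holds 24358 gene identifiers, of which 14692 could be paired with a symbol, and each of the 9 symbols matched 1 identifier. After genes with low counts were removed, 13250 genes were tested, and all 9 were among them.

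The study asked what overexpression of IRF-1, a transcription factor of the interferon response, does to the pluripotency of porcine induced pluripotent stem cells (piPSCs). The RNA-seq data comprise 4 libraries, those of IRF-1 overexpressing cells being replicates 1 and 3 and those of control cells replicates 6 and 8, with 2 in each group. All were DOX-hLIF-2i piPSCs, which were made from porcine embryonic fibroblasts (PEFs) with doxycycline-inducible reprogramming factors (FUW-OSKM), carried an OCT4-tdTomato reporter and still depended on doxycycline, so the introduced factors were on in both groups. Their medium held human LIF, pig LIF and the inhibitors CHIR99021 and PD0325901, although the sample labels name an LCDMV culture system. The IRF-1 overexpressing cells carried the piggyBac vector PB-CAG-IRF1-Flag, in which the constitutive CAG promoter drives a Flag-tagged IRF1 amplified from PEF cDNA. The control cells had the vector without the insert, PB-CAG-Flag. Puromycin was used to select both, and feeder cells were left behind by letting them attach for 1 h before RNA was taken. The 4 ChIP-Seq samples of the series were not analysed here.

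The genotype label reads overexpression for all 4 RNA-seq libraries, and the groups used here follow the legend of the study's map of the samples, which names the libraries by title. IRF1 was therefore examined first. Its counts were 8206 and 5485 in replicates 1 and 3 of the overexpressing cells, and 55 and 56 counts in the control replicates 6 and 8. The grouping thus separates high from low IRF1, but the counts do not tell the introduced IRF1 from the endogenous gene. No source used here says which cultures the libraries came from, so p-values measure only the spread between these libraries, which may be technical.

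The counts added up to 24923319 and 20858333 in the overexpressing libraries, and to 15925429 and 17097669 in the control libraries. Values are given as CPM, the count scaled to the library total and its TMM factor, and as FPKM where genes are compared with each other, since FPKM divides by the length of a gene's exons. A count of 3 in a library was taken as the floor, which is 0.120 and 0.144 CPM in the overexpressing libraries and 0.188 and 0.175 CPM in the controls. Floors and counting intervals cover counting error only. A gene was called higher or lower in the overexpressing cells when its adjusted p was under 0.05 and its log2 fold change reached 1 in size. Of the 13250 genes, 1141 (8.61%) were called higher and 1410 (10.6%) lower, together 2551 (19.3%), and the median log2 fold change was -0.00.

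The trophoblast is the outer lineage of the blastocyst, from which the embryonic part of the placenta forms. AP-2 transcription factors, encoded by the TFAP2 genes, bind GC-rich DNA as dimers, and they act with GATA2 and GATA3 in switching on trophoblast genes. TFAP2C is needed for the upkeep of mouse trophoblast stem cells, whereas TFAP2A is also known for the neural crest, the surface ectoderm and the amnion. They are not related to the clathrin adaptor complex that is also named AP-2.

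Among the 9 genes, TFAP2A, TFAP2B and PTGES were called higher in the IRF-1 overexpressing cells, and TFAP2C and DAB2 lower. These are 3 higher and 2 lower, beside 8.61% and 10.6% of all tested genes, and nothing is read from that count since the comparison was used to choose the genes. GATA2, GATA3, ENPEP and FURIN were not called. In 7 of the 9 genes both overexpressing libraries lay on one side of both controls, which was also the case for 68.6% of the tested genes. Only GATA2 and GATA3 had overlapping groups. In bulk RNA, fewer cells of a type and less RNA per cell cannot be told apart, and this holds for each of the values below. The gene lists used below were likewise chosen with earlier results of these data known. Their counts are a description beside 8.61% called higher and 10.6% called lower of all tested genes. The p-values printed for genes of these lists are a description as well.

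**Figure D1:**
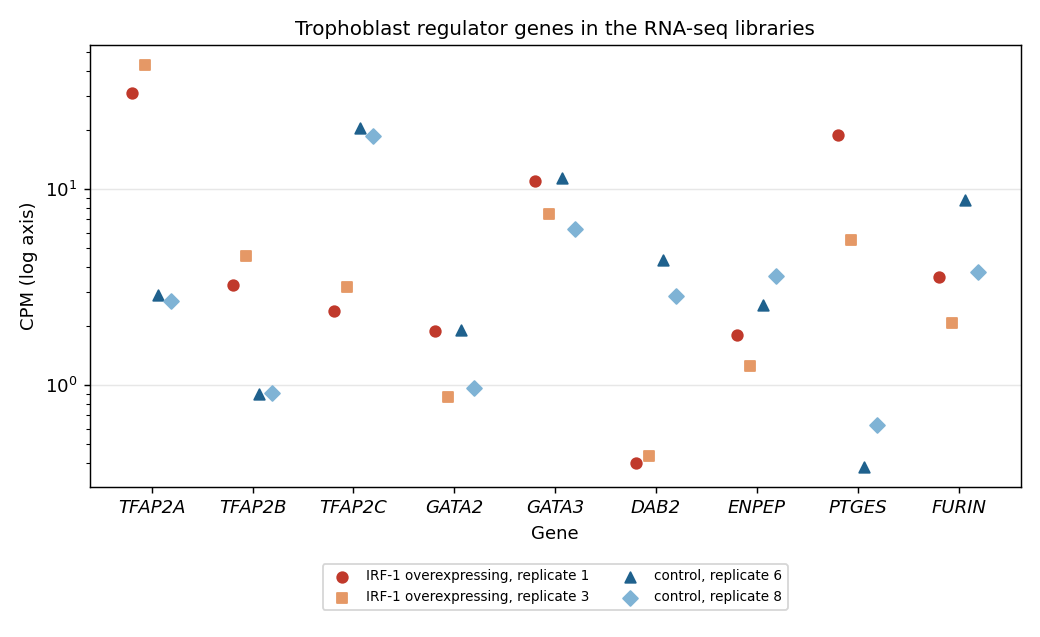
CPM of the 9 trophoblast regulator genes on a log axis, with 1 point for each of the 4 RNA-seq libraries. TFAP2A, TFAP2B and PTGES lie higher in both overexpressing libraries and TFAP2C and DAB2 lower, while the libraries of the groups are interleaved for GATA2 and GATA3.

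TFAP2A (ENSSSCG00000001036) is a gene of chromosome 7 (7223100 to 7244883 in the build Sscrofa11.1, minus strand). It had 769 and 890 counts in replicates 1 and 3 of the overexpressing cells, and 45 and 47 counts in the control replicates 6 and 8. Both overexpressing libraries were far above both controls, at 36.8 ± 8.36 CPM against 2.78 ± 0.136 CPM (SD, n = 2 per group). The log2 fold change was 3.72 (SE 0.256), and it lay between 3.48 and 3.95 when each library was left out in turn.

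TFAP2C (ENSSSCG00000007499), the AP-2 factor of the trophectoderm and of primordial germ cells, lies on the plus strand of chromosome 17, from 57164371 to 57175315. It had 59 and 66 counts under IRF-1 overexpression, and 321 and 326 counts in the controls. Here the order of the groups was the opposite of that for TFAP2A, with 2.77 ± 0.564 CPM in the overexpressing cells against 19.6 ± 1.35 CPM in the control cells (SD, n = 2 per group). The log2 fold change was -2.82 (SE 0.268), and it ran from -3.04 to -2.61 when single libraries were left out. TFAP2C is also 1 of the genes that the study itself showed for these libraries.

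The relation between these paralogs within a library can be given per exon length. In the control cells TFAP2C stood at 5.93 and 5.38 FPKM and TFAP2A at 1.06 and 0.986 FPKM, so that TFAP2C was 5.61 and 5.46 times as high. In the overexpressing cells TFAP2A stood at 11.4 and 15.7 FPKM and TFAP2C at 0.686 and 0.916 FPKM, which makes TFAP2A 16.6 and 17.1 times as high. The order of the paralogs was thus reversed between the groups, and the ratio was close between the replicates of each group.

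TFAP2B (ENSSSCG00000025535), which is known for the neural crest and the kidney, lies on the plus strand of chromosome 7, from 44745643 to 44772766. It had 81 and 95 counts under IRF-1 overexpression, and 14 and 16 counts in the controls. The groups did not overlap, with 3.91 ± 0.924 CPM against 0.905 ± 0.0133 CPM (SD, n = 2 per group), and the log2 fold change was 2.10 (SE 0.419). Without overexpressing replicate 3 it was 1.85 and no longer called. TFAP2B shares 246 of its 4980 exon bases with an unnamed gene on the opposite strand, so part of its counts is uncertain where strand was not used.

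The AP-2 family has TFAP2D and TFAP2E as its other members, and they were not among the chosen genes. The family list was still set up with earlier results of these data known, so their values too are a description. TFAP2D (ENSSSCG00000001744), best known from the developing midbrain, had 3776 and 2375 counts under IRF-1 overexpression, and 248 and 318 counts in the controls. It rose from 17.0 ± 1.63 CPM to 133 ± 26.7 CPM (SD, n = 2 per group) in both overexpressing libraries, a log2 fold change of 2.97 (SE 0.191, Benjamini-Hochberg adjusted p = 0.000194 by the edgeR quasi-likelihood test). TFAP2E had 29 and 12 counts under IRF-1 overexpression, and 3 and 2 counts in the controls. Its ratio was 5.95, with a 95% counting interval from 2.35 to 19.3. TFAP2E was called higher with all 4 libraries, but not with any library left out. Without overexpressing replicate 1, as with a stricter filter, it had too few counts to be tested, and its ratio was then 3.82. Without overexpressing replicate 3, control replicate 6 or control replicate 8 the log2 fold changes were 2.90, 2.88 and 2.17. It was not called with DESeq2, limma-voom or glmTreat either.

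TFAP2C was thus called lower while the 4 other AP-2 genes were called higher, under each scaling of the libraries that was tried. Summed over the 5 genes, the AP-2 family stood at 125 and 102 FPKM in the overexpressing libraries and at 19.0 and 20.01 FPKM in the controls. TFAP2D made up most of that sum in every library, with 89.2% and 82.4% in the overexpressing cells and 61.5% and 66.8% in the controls. TFAP2C made up 31.2% and 26.9% of the sum in the controls but 0.547% and 0.898% in the overexpressing cells. TFAP2A made up 5.57% and 4.93% in the controls, and 9.06% and 15.4% in the overexpressing cells.

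The order of the AP-2 genes by FPKM in the control cells was TFAP2D (12.5 ± 1.20), TFAP2C (5.66 ± 0.389), TFAP2A (1.02 ± 0.04999), TFAP2B (0.182 ± 0.00268) and TFAP2E (0.117 ± 0.0420, SD, n = 2). No neighbours in this order overlapped, although TFAP2E was at the floor. In the overexpressing cells TFAP2D (97.9 ± 19.7 FPKM) and TFAP2A (13.5 ± 3.07 FPKM) stood apart. TFAP2C (0.801 ± 0.163 FPKM), TFAP2B (0.785 ± 0.185 FPKM) and TFAP2E (0.668 ± 0.320 FPKM) followed with overlapping libraries. The exon lengths behind these values run from 1305 bases for TFAP2E and 1359 for TFAP2D to 4980 for TFAP2B, so the order between genes depends on these gene models.

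**Figure D2:**
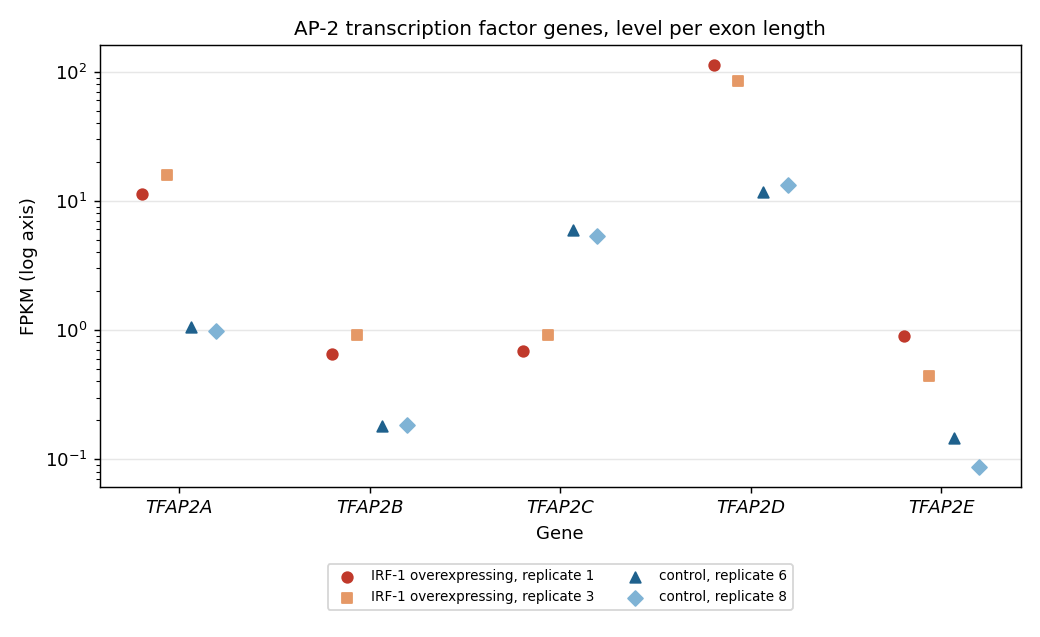
FPKM of the 5 AP-2 transcription factor genes on a log axis, with 1 point for each of the 4 RNA-seq libraries. TFAP2D is the highest in every library, and TFAP2A lies above TFAP2C in the overexpressing libraries and below it in the controls.

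By position, TFAP2D and TFAP2B are neighbours in the family. Both lie on the plus strand of chromosome 7, with 43.1 kb between the end of TFAP2D at 44702561 and the start of TFAP2B. TFAP2A is on the same chromosome, 37.4 Mb away and on the other strand. TFAP2C (chromosome 17) and TFAP2E (chromosome 6) lie elsewhere.

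AP-2 factors work with cofactors and are held back by inhibitors, and 8 of 10 such genes could be matched and were tested. Of these, 1 was called higher and 1 lower, with a median log2 fold change of -0.05. CITED2, which links AP-2 factors to the acetyltransferases EP300 and CREBBP, had 308 and 393 counts under IRF-1 overexpression, and 1793 and 1371 counts in the controls. It fell in both overexpressing libraries, with a log2 fold change of -2.63 (SE 0.263, Benjamini-Hochberg adjusted p = 0.000655 by the edgeR quasi-likelihood test). Its relative CITED1 moved the other way, with 206 and 136 counts under IRF-1 overexpression, 33 and 28 in the controls, and a log2 fold change of 2.00 (SE 0.348). So a pair of CITED genes, like TFAP2A and TFAP2C, had opposite directions in these libraries.

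EP300 and CREBBP themselves had overlapping groups, with log2 fold changes of -0.16 (SE 0.161) and 0.07 (SE 0.156). Among the genes that bind or hold back AP-2 proteins, KCTD15 had a log2 fold change of -0.62 (SE 0.162), under the fold limit. Those of KCTD1, WWOX and YEATS4 were 0.12, -0.56 and 0.10, and none was called.

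GATA2 and GATA3 are zinc finger factors of the trophectoderm and its descendants. GATA3 (ENSSSCG00000011125, chromosome 10, 63367663 to 63390560, minus strand) had 273 and 155 counts under IRF-1 overexpression, and 178 and 110 counts in the controls. That is 9.21 ± 2.50 CPM against 8.84 ± 3.61 CPM (SD, n = 2 per group), and a log2 fold change of 0.07 (SE 0.354), with values from -0.29 to 0.55 when single libraries were left out. GATA2 (ENSSSCG00000011618, chromosome 13, 71984067 to 71999729, plus strand) had 47 and 18 counts under IRF-1 overexpression, and 30 and 17 counts in the controls. Its log2 fold change was -0.05 (SE 0.561), and it ran from -0.72 to 0.51 when single libraries were left out, so for neither gene was the direction settled by these libraries. GATA2 shares 325 of its 6063 exon bases with EEFSEC on the opposite strand.

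In GATA2 and GATA3 the replicates of a group lay further apart than the groups did. GATA2 was 2.19 times as high in overexpressing replicate 1 as in replicate 3, and 1.98 times as high in control replicate 6 as in replicate 8, by CPM. The corresponding ratios were 1.47 and 1.81 for GATA3.

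Of the GATA genes and their FOG partners, 8 of 8 could be matched and 5 were tested, and 1 was called, in the lower direction, with a median log2 fold change of -0.05 over the tested genes. The called gene was ZFPM2, a FOG cofactor of GATA proteins, with 12 and 17 counts under IRF-1 overexpression, 48 and 57 in the controls, and a log2 fold change of -2.29 (SE 0.454). Without overexpressing replicate 1 its value was -1.93 and not called. GATA6, a factor of the primitive endoderm, had overlapping groups with a log2 fold change of 0.12 (SE 0.212), and ZFPM1 stood at -0.27 (SE 0.273). GATA1 and GATA4 had at most 5 counts in any library, and GATA5 had 0 in all 4.

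DAB2 (ENSSSCG00000016857, chromosome 16, 24514722 to 24777242, minus strand) is an adaptor that brings receptors of the LDL receptor family into clathrin-coated pits, and it is expressed in trophoblast and in primitive endoderm. It had 10 and 9 counts under IRF-1 overexpression, and 68 and 50 counts in the controls. The groups did not overlap, with 0.417 ± 0.0213 CPM against 3.60 ± 1.06 CPM (SD, n = 2 per group). The log2 fold change was -3.09 (SE 0.473), and it ran from -3.36 to -2.76 when single libraries were left out. DAB2 shares 1682 of its 7817 exon bases with C9 on the same strand, so which gene the reads of that stretch belong to is uncertain. The study itself showed DAB2 for these libraries.

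Of 17 receptors and partners of DAB2, 15 could be matched and 14 were tested. Of these, 2 were called higher and 2 lower, with a median log2 fold change of -0.24. LRP2 (megalin), a large endocytic receptor whose tail binds DAB2, had 335 and 315 counts under IRF-1 overexpression, and 1789 and 2072 counts in the controls. It fell in both overexpressing libraries, with a log2 fold change of -3.03 (SE 0.152, Benjamini-Hochberg adjusted p = 9.79e-05 by the edgeR quasi-likelihood test), close to that of DAB2. Its exons share 26 of 18656 bases with ABCB11 on the same strand. CUBN, the partner of LRP2 at the cell surface, was at the floor in all 4 libraries.

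DAB1, the paralog of DAB2 that acts in reelin signalling, was called higher, with 164 and 75 counts under IRF-1 overexpression, 12 and 8 in the controls, and a log2 fold change of 3.06 (SE 0.508). VLDLR, a reelin receptor, had 997 and 620 counts under IRF-1 overexpression and 280 and 201 in the controls. VLDLR was called higher at 1.25 (SE 0.262), but not without overexpressing replicate 1 (1.03) or control replicate 8 (0.97), and 434 of its 6637 exon bases lie opposite an unnamed gene. The other reelin receptor, LRP8, was not called, at 0.31 (SE 0.187). Among the coat proteins, CLTC (clathrin heavy chain), AP2A1 and AP2M1 had values of -0.49, -0.03 and -0.26 and were not called. Part of their counts is uncertain, since AP2M1 shares 1091 of its 2574 exon bases with ABCF3 on the same strand, AP2A1 shares 748 of 2934 with FUZ and CLTC 622 of 7546 with PTRH2, both on the opposite strand.

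ENPEP (ENSSSCG00000009132, chromosome 8, 111765839 to 111858515, minus strand) is the glutamyl aminopeptidase that trims angiotensin II, and a surface protein of early trophoblast. It had 45 and 26 counts under IRF-1 overexpression, and 40 and 63 counts in the controls. By CPM the groups did not overlap, with 1.53 ± 0.397 against 3.08 ± 0.737 (SD, n = 2 per group). The log2 fold change was -1.003 (SE 0.417), and ENPEP was not called.

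Of 12 genes for peptidases and receptors of the renin-angiotensin system, 10 could be matched and 5 were tested. Besides ENPEP, 1 was called higher and 2 lower. The aminopeptidase ANPEP had 13 and 19 counts under IRF-1 overexpression, 73 and 59 in the controls, and a log2 fold change of -2.49 (SE 0.463), which was -2.11 and not called without overexpressing replicate 1. The endopeptidase MME (neprilysin) had 5 and 6 counts under IRF-1 overexpression, 34 and 54 in the controls, and a log2 fold change of -3.41 (SE 0.528). LNPEP, another membrane aminopeptidase, was higher, with 1229 and 693 counts against 191 and 337, and a log2 fold change of 1.39 (SE 0.278). So the related aminopeptidases did not share a direction, as was the case in the AP-2 family. AGT and AGTR2 were at the floor in all 4 libraries, AGTR1 had at most 4 counts, and ACE had 0.

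PTGES (ENSSSCG00000005688, chromosome 1, 269911793 to 269924481, minus strand) makes prostaglandin E2 from prostaglandin H2, and prostaglandin E2 from the conceptus and the uterus takes part in the maintenance of pregnancy in the pig. It had 471 and 115 counts under IRF-1 overexpression, and 6 and 11 counts in the controls. Both overexpressing libraries were above both controls, but they lay 3.43-fold apart by CPM, at 12.2 ± 9.49 CPM against 0.506 ± 0.173 CPM (SD, n = 2 per group). The log2 fold change was 4.57 (SE 0.694). Leaving out overexpressing replicate 1 gave 3.43 and leaving out replicate 3 gave 5.20, and PTGES was called in both cases.

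Of 18 genes of prostaglandin E2 synthesis and signalling, 16 could be matched and 11 were tested, PTGES included. Of the 11, 4 were called higher and 1 lower, and the median log2 fold change was 0.47, also with HPGD at its bound. Without PTGES, 3 of 10 were called higher and 1 lower, with a median of 0.39. The number called lower was 3 when genes with low counts were kept, 2 without overexpressing replicate 3 or control replicate 8, and 0 with glmTreat. PLA2G4A, the phospholipase that frees arachidonic acid at the start of the pathway, had 560 and 317 counts under IRF-1 overexpression, and 24 and 22 counts in the controls. It rose in both overexpressing libraries, with a log2 fold change of 3.76 (SE 0.331, Benjamini-Hochberg adjusted p = 0.00045 by the edgeR quasi-likelihood test). PTGS2, the inducible cyclooxygenase of the next step, had 18 and 8 counts under IRF-1 overexpression, and 9 and 6 in the controls. PTGS2 was thus low in all 4 libraries with overlapping groups, and PTGS1 (2 and 4 counts against 29 and 7) did not pass the filter on low counts. PTGS1 was called lower when such genes were kept (-2.99) and without control replicate 8 (-3.74).

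The other prostaglandin E synthases, PTGES2 and PTGES3, had log2 fold changes of 0.47 (SE 0.161) and -0.26 (SE 0.141) and were not called. PTGES3 had the highest CPM of the list in the controls, and AKR1B1 in the overexpressing libraries. PTGES3 stood at 237 ± 11.9 CPM in the overexpressing cells and 284 ± 31.8 CPM in the control cells (SD, n = 2 per group). Of the receptors, PTGER4 was called higher, with 147 and 81 counts under IRF-1 overexpression, 12 and 11 in the controls, and a log2 fold change of 2.81 (SE 0.440). PTGER2 was not called at -0.74 (SE 0.447). PTGER3 had at most 9 counts in any library, and PTGER1 and CBR1 were at the floor. PTGER1 also shares exon bases with its neighbours.

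The genes that remove prostaglandin E2 went in opposite directions. HPGD, the dehydrogenase that inactivates it, had 55 and 24 counts under IRF-1 overexpression and 0 in both controls. Against a floor of 3 counts per library it was at least 9.26-fold higher. SLCO2A1, the transporter that takes prostaglandins up, was called lower, with 237 and 517 counts under IRF-1 overexpression, 965 and 897 in the controls, and a log2 fold change of -1.72 (SE 0.388), or -2.56 without overexpressing replicate 3. AKR1B1 (0.53, SE 0.135) was under the fold limit and PTGIS (-0.63, SE 0.317) was not called. PTGFR had 0 and 1 counts under IRF-1 overexpression and 8 and 12 in the controls, and it was not tested in the main comparison. It was called lower when genes with low counts were kept (-4.40) and without overexpressing replicate 3 (-6.55).

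FURIN (ENSSSCG00000001817, chromosome 7, 53455629 to 53472790, plus strand) is a proprotein convertase that cuts precursors of the TGF-beta family, NODAL and BMP4 among them, into their active forms. It had 88 and 43 counts under IRF-1 overexpression, and 137 and 66 counts in the controls. By CPM the lowest control (3.77) was just above the highest overexpressing library (3.54). The log2 fold change was -1.15 (SE 0.482), and FURIN was not called. It was called at -1.63 without control replicate 8, and also when genes with low counts were kept, and it stood at -0.42 without control replicate 6.

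FURIN is 1 of 9 proprotein convertase genes, all matched, of which 6 were tested. PCSK1, the convertase of neuroendocrine secretory granules, was the 1 gene called, in the higher direction, beside a median log2 fold change of -0.16. PCSK1 had 37 and 11 counts under IRF-1 overexpression, and 2 and 2 in the controls, a ratio of 8.71 with a 95% counting interval from 3.19 to 33.2, and it was not called without control replicate 6 or 8 (log2 fold changes of 3.09 and 2.95), nor with DESeq2 or glmTreat. Without overexpressing replicate 1, as with a stricter filter, it had too few counts to be tested, and its ratio was then 4.38, against 12.3 without replicate 3. PCSK2, the other granule convertase, had 29 and 5 counts under IRF-1 overexpression and 0 in both controls, at least 3.87-fold higher against a floor of 3 counts per library, and was not tested in the main comparison. It was called higher when genes with low counts were kept, with DESeq2 and without overexpressing replicate 3. The bound rests mostly on overexpressing replicate 1, since it was 1.32 without that library and 6.42 without replicate 3.

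PCSK6 (PACE4), which cuts NODAL beside FURIN, had 307 and 277 counts under IRF-1 overexpression, 430 and 412 in the controls, and a log2 fold change of -0.99 (SE 0.196), just under the fold limit. It was called without overexpressing replicate 3 (-1.04) or control replicate 8 (-1.09). PCSK5, PCSK7 and MBTPS1 had overlapping groups, with log2 fold changes of -0.16, -0.16 and 0.10. PCSK7 shares 1405 of its 7485 exon bases with TAGLN on the opposite strand. PCSK4 had at most 18 counts in any library.

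Of 12 furin substrates known in the embryo, 11 could be matched and 9 were tested, with 1 called higher, 2 lower and a median log2 fold change of 0.05. INHBA, the subunit of activin A, was higher, with 186 and 180 counts under IRF-1 overexpression, 34 and 10 in the controls, and a log2 fold change of 2.57 (SE 0.541). Leaving out control replicate 6 gave 3.80 and leaving out control replicate 8 gave 1.90. BMP2 was lower, with 35 and 31 counts against 104 and 141 and a log2 fold change of -2.34 (SE 0.339), and so was the matrix protease MMP14 at -1.33 (SE 0.197). INSR, the insulin receptor, stood at 0.85 (SE 0.205), under the fold limit, and was called higher without overexpressing replicate 3 (1.05). NODAL had 374 and 351 counts under IRF-1 overexpression, and 76 and 180 in the controls. Its log2 fold change of 1.07 (SE 0.348) was not called, but it was called at 1.72 without control replicate 8, and also with DESeq2, with limma-voom and when genes with low counts were kept.

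The spread within a group differed among the 9 genes. TFAP2A, TFAP2B and TFAP2C were each higher in overexpressing replicate 3 than in replicate 1, by 1.38, 1.40 and 1.34 times. The controls of these genes were between 0.979 and 1.10 times each other. PTGES went the other way in the overexpressing cells, at 3.43 times in replicate 1, and FURIN was 1.71 times as high in overexpressing replicate 1 as in replicate 3 and 2.32 times as high in control replicate 6 as in replicate 8. Over all tested genes, 14.6% differed by more than 1.5-fold within the overexpressing pair and 19.6% within the control pair. GATA2 and FURIN were among the 278 genes (2.10%) that were more than 1.5-fold higher in overexpressing replicate 1 and also in control replicate 6.

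By FPKM, the order of the 9 genes in the control cells began with TFAP2C (5.66 ± 0.389), GATA3 (2.17 ± 0.887) and TFAP2A (1.02 ± 0.04999, SD, n = 2), which did not overlap with each other. FURIN (0.851 ± 0.479) overlapped with TFAP2A above it and with ENPEP (0.824 ± 0.197), DAB2 (0.461 ± 0.135) and PTGES (0.434 ± 0.148) below it, and DAB2 also with PTGES. GATA2 (0.238 ± 0.110) and TFAP2B (0.182 ± 0.00268) came last and overlapped. In the overexpressing cells TFAP2A (13.5 ± 3.07) and PTGES (10.5 ± 8.14) led with overlapping libraries, followed by GATA3 (2.27 ± 0.615). TFAP2C and TFAP2B came next and overlapped at 0.801 ± 0.163 and 0.785 ± 0.185. ENPEP (0.409 ± 0.106), FURIN (0.381 ± 0.142) and GATA2 (0.227 ± 0.120) formed a chain in which neighbours overlapped, and DAB2 (0.0534 ± 0.00273) was the lowest.

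The genes with the pattern most like that of TFAP2A were looked for among 10632 tested genes with a symbol and a mean of at least 1 CPM. The measure was the Euclidean distance between log2 CPM values centred over the 4 libraries. CETN3, a centrin of the centrosome, was nearest to TFAP2A (distance 0.161), with 138 and 160 counts under IRF-1 overexpression and 8 and 8 in the controls. TP73 (0.327), a relative of the tumour suppressor p53, and the ligand gene WNT2 (0.393) came next. WNT2 had 57 and 57 counts under IRF-1 overexpression and 1 and 2 in the controls, under the floor, so its distance is uncertain. For TFAP2C the nearest were THSD4 (0.179), SPON2 (0.179) and FOXI3 (0.230). THSD4 had 129 and 137 counts under IRF-1 overexpression and 583 and 630 in the controls, and SPON2 had 150 and 149 counts against 834 and 747. These distances are over 4 libraries in 2 groups.

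To check the label of trophoblast, a list of 37 trophoblast genes was examined, of which 34 could be matched and 22 were tested. Several defining markers were absent. CDX2, HAND1, GCM1, ASCL2 and CGA had 0 counts in all 4 libraries, and EOMES, TP63 and KRT7 were at the floor. ELF5 had 2 and 4 counts under IRF-1 overexpression and 4 and 0 in the controls. The name trophoblast regulators is therefore only a label for the 9 genes, since these defining markers were at or near 0 in both groups. TFAP2B and FURIN are not on the trophoblast list, and ENPEP, PTGES and FURIN are enzymes.

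Of the 22 tested trophoblast genes, 3 were called higher and 13 lower, with a median log2 fold change of -1.50 beside -0.00 over all tested genes. The list holds 7 of the 9 genes. Of the 15 other tested genes, 1 was called higher and 11 lower, with a median of -1.72. This list too was chosen with earlier results of these data known, and it holds KRT8, which the study showed for these libraries. The counts are therefore a description, beside 8.61% called higher and 10.6% called lower of all tested genes. Summed over the list, the level was 1113 and 1998 CPM in the overexpressing libraries, and 16912 and 10972 CPM in the controls. Most of the sum in the controls came from the keratins KRT8 and KRT18, which form the filaments of simple epithelia. The most abundant gene was PEG10 in overexpressing replicate 1 and KRT8 in the 3 other libraries. Without these keratins the sum was 849 and 896 CPM in the overexpressing libraries, and 1362 and 1452 CPM in the controls. PEG10, which was not called, was the largest single part of that sum, at 569 and 560 CPM against 604 and 850 CPM. FGFR2 came next, at 104 and 162 CPM against 390 and 318 CPM.

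KRT18 had 343 and 1843 counts under IRF-1 overexpression, and 55405 and 35599 in the controls. It fell, with a log2 fold change of -5.77 (SE 0.825), which was -4.96 without overexpressing replicate 1 and -7.65 without replicate 3. KRT8 fell by 3.95 on the log2 scale (SE 0.607), with -3.25 and -5.28 without overexpressing replicates 1 and 3. KRT8 is also a gene that the study showed for these libraries. In both keratins, overexpressing replicate 3 was well above replicate 1 but far below the controls.

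Among the transcription factors of the list, TEAD4, which sets up the trophectoderm, fell in both overexpressing libraries, with 222 and 328 counts in them and 1382 and 1219 in the controls. Its log2 fold change was -2.68 (SE 0.278, Benjamini-Hochberg adjusted p = 0.000735 by the edgeR quasi-likelihood test). ID2, an inhibitor of basic helix-loop-helix factors, fell by 2.66 on the log2 scale (SE 0.273). MSX2 (-1.72), ETS2 (-1.09) and VGLL3 (-1.58) were also called lower. MSX2 was not called without overexpressing replicate 1 (-1.77) or 3 (-1.66), ETS2 not without overexpressing replicate 1 (-1.02) or control replicate 6 (-0.78), and VGLL3 not without the same libraries (-1.17 and -1.40).

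Among signalling genes of the trophoblast list, FGFR2, the receptor through which FGF signals act on trophoblast stem cells, was called lower at -1.41 (SE 0.225). WNT6 had 1 and 8 counts under IRF-1 overexpression and 114 and 55 in the controls, and WNT7B had 13 and 10 against 131 and 33. Both were called lower, at -4.65 and -3.33. WNT6 stood at -3.72 and -6.80 without overexpressing replicates 1 and 3, and at -3.92 without control replicate 6. WNT7B stood at -1.90, and was not called, without control replicate 6, and at -4.03 without control replicate 8. The iron exporter SLC40A1 was lower at -2.71 (SE 0.511), with -2.12 and -3.61 without overexpressing replicates 1 and 3. DLX5 (0.88, and called at 2.09 without control replicate 8), PEG10 (-0.36) and ARID3A (-0.82) were not called.

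**Figure D3:**
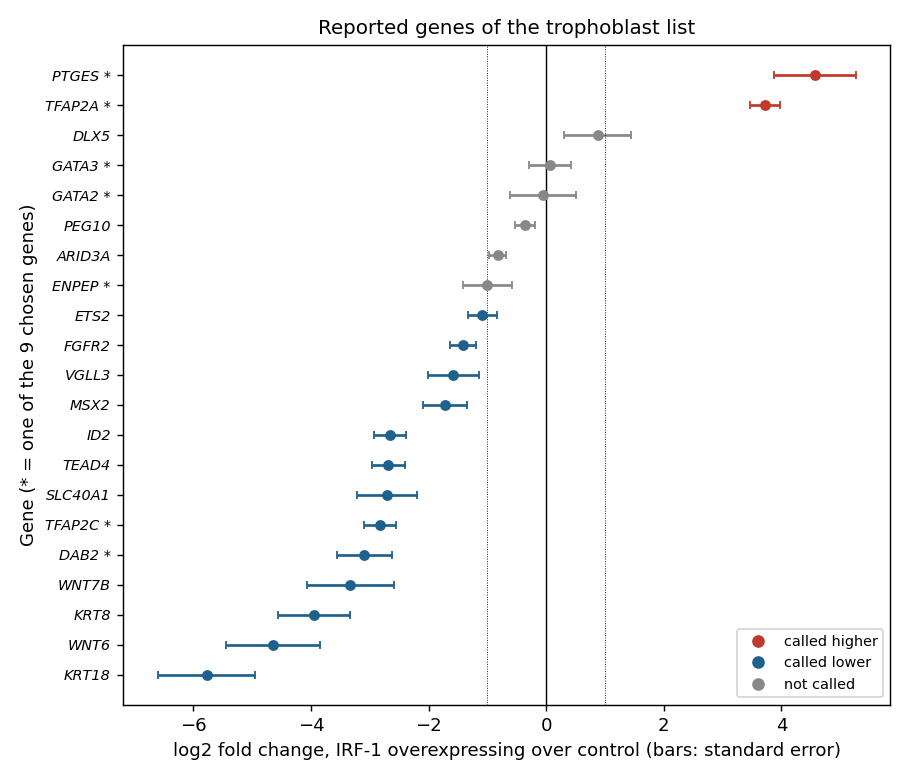
Log2 fold change of the tested trophoblast list genes that are reported here, overexpressing over control, with bars for the standard error and dotted lines at the fold limit. Stars mark the 7 chosen genes on the list, and of the genes drawn 13 were called lower and 2 higher, with TFAP2A and TFAP2C on opposite sides.

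The label of the cells is iPSC, and 20 pluripotency genes were examined for it, of which 10 could be matched and 6 were tested. POU5F1 and SOX2 were not analysed here. DNMT3B, a DNA methyltransferase, and LIN28A, an RNA-binding protein, were far above the floor in every library, at 1019.6 ± 20.5 and 175 ± 15.9 CPM in the overexpressing cells and 845 ± 214 and 444 ± 87.7 CPM in the control cells (SD, n = 2 per group). NANOG had 8 and 11 counts under IRF-1 overexpression and 5 and 9 in the controls, PRDM14 and KLF17 had 0 in all 4, and DPPA5 was at the floor. Of the 6 tested genes, 4 were called, each lower in the overexpressing cells. The median of the 6 log2 fold changes was -1.18. The called genes were LIN28A (-1.34), ESRRB (-4.19), TRIM71 (-1.01) and the epithelial cadherin CDH1 (-2.25). DNMT3B and EPCAM were not called, at 0.27 (SE 0.178) and 0.21 (SE 0.257). TRIM71 was not called without overexpressing replicate 3 (-0.93) or control replicate 6 (-0.79). Nor was it called with limma-voom, with glmTreat or when genes with low counts were kept. LIN28A was not called with glmTreat. CDH1 stood at -1.66 and -3.21 without overexpressing replicates 1 and 3. The summed level of the list was 1253 and 1295 CPM in the overexpressing libraries and 1523 and 1674 CPM in the controls, with DNMT3B as its most abundant gene.

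TFAP2A and TFAP2B are also markers of other cell types, and lists for these were examined beside them. Of 15 neural crest and neural plate border genes, 14 were matched and 9 tested, with 3 called higher, 2 lower and a median log2 fold change of 0.72. Without TFAP2A and TFAP2B, 1 of 7 was called higher and 2 lower, with a median of 0.23. PAX7, a factor of the neural plate border, had 120 and 185 counts under IRF-1 overexpression, and 0 and 2 in the controls, a ratio of 111 with a 95% counting interval from 30.4 to 918. Its fitted log2 fold change was 5.83 without control replicate 6, whereas leaving out control replicate 8 left a control at 0. MSX1 (-3.29, or -4.06 without overexpressing replicate 3) and ERBB3 (-1.13) were called lower. The crest markers SOX10 (6 and 3 counts against 3 and 7), SOX9 (0 and 4 against 0 and 0) and FOXD3 (11 and 10 against 4 and 4) were low, and NGFR was at the floor. The summed level was 233 and 278 CPM in the overexpressing libraries and 349 and 353 CPM in the controls.

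Of 12 amnion genes, 11 were matched and 8 tested, with 4 called higher, 1 lower and a median of 0.95. TFAP2A and GATA3 are on this list, and WNT6 was its gene called lower. Without TFAP2A and GATA3, 3 of 6 were called higher and 1 lower, with a median of 0.95. Besides TFAP2A, those called higher were ISL1 (677 and 386 counts against 63 and 80), HEY1 and BAMBI, at 2.41, 2.36 and 1.06. HEY1 stood at 2.06, and was not called, without overexpressing replicate 1, and at 3.64 and 1.68 without control replicates 6 and 8, while BAMBI was not called without control replicate 6 (0.99). The amnion marker VTCN1 was at the floor and HAND1 at 0. The summed level, TFAP2A included, was 121 and 114 CPM in the overexpressing libraries, and 52.0 and 36.2 CPM in the controls. TFAP2A was the most abundant gene in the overexpressing libraries and BAMBI in the controls.

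Of 12 surface ectoderm and epidermis genes, 8 were matched and 4 tested, with TFAP2A called higher, GRHL3 and PERP lower and a median of -1.74. Without TFAP2A, 0 of 3 were called higher and 2 lower, with a median of -2.11. GRHL3 (2 and 6 counts against 20 and 23) stood at -2.82, at -2.13 and not called without overexpressing replicate 1, and at -3.90 without replicate 3. PERP stood at -2.11. It was the most abundant gene in the controls, and TFAP2A in the overexpressing libraries. OVOL1 (13 and 18 counts against 41 and 17, with 370 of its 3569 exon bases opposite AP5B1) was not called at -1.37 (SE 0.608), but it was called lower at -1.91 without control replicate 8, and it stood at -0.50 without control replicate 6. TP63, DSG3 and GRHL2 were at the floor and KRT15 at 0. The summed level was 46.9 and 55.0 CPM in the overexpressing libraries, and 63.4 and 62.7 CPM in the controls.

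DAB2 is also a gene of the primitive endoderm. Of 14 genes on that list, 11 were matched and 5 tested. The 3 called genes were lower in the overexpressing cells, and the median log2 fold change was -1.95. They were DAB2, LAMB1 (-1.95) and APOA1 (-2.55, or -3.40 without overexpressing replicate 3). Without DAB2, 0 of 4 were called higher and 2 lower, with a median of -1.78. PDGFRA, a receptor that is on this list and among the fibroblast genes, had 12 and 12 counts under IRF-1 overexpression, and 32 and 21 in the controls. It stood at -1.60 (SE 0.513) with a Benjamini-Hochberg adjusted p = 0.0507 by the edgeR quasi-likelihood test, just over the limit. It was called lower with upper quartile scaling, with library size alone, with genes with low counts kept, with a stricter filter and without control replicate 8 (-1.93), which makes 4 called genes, but not under the 9 other alternatives. The study reported PDGFRA as lower in the overexpressing cells. FOXA2, TTR and AFP had 0 counts in all 4 libraries, and GATA4 had at most 4 counts. The summed level was 140 and 150 CPM in the overexpressing libraries and 436 and 429 CPM in the controls, mostly from LAMB1.

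Since the cells were made from PEFs, fibroblast markers were examined too. Of 15 fibroblast genes, 13 were matched and 9 tested, with 2 called higher, 4 lower (5 where PDGFRA is called) and a median of -1.60. COL1A2 (1.08) and PRRX1 (1.62) were higher, and COL1A1 (-1.97), PDGFRB (-5.49), S100A4 (-2.40) and DCN lower, all as log2 fold changes. DCN had 3 and 1 counts under IRF-1 overexpression and 19 and 19 in the controls, a ratio of 0.0764 with a 95% counting interval from 0.0198 to 0.212. COL1A2 was not called without overexpressing replicate 1 (0.65) or control replicate 8 (0.78), and DCN not without overexpressing replicate 3 (-3.18), while without replicate 1 it stood at -4.38. PDGFRB stood at -6.32 without overexpressing replicate 3 and -4.79 without control replicate 6, and S100A4 at -3.28 without overexpressing replicate 3. The summed level was 1237 and 984 CPM in the overexpressing libraries and 1345 and 1205 CPM in the controls, with VIM as the most abundant gene and LUM at the floor. The part of other cell types in the values of TFAP2A, TFAP2C, DAB2 and PTGES was not tested.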

How the data were processed

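According to the submitters' processing notes, reads were handled with HISAT2 2.0.4 and featureCounts 1.6.4, and the study mapped them to Sscrofa11.1 and compared the groups with DESeq2. The authors deposited whole-number counts per gene for each library, without normalization, with exon positions and lengths. The annotation release, strand setting and treatment of multi-mapped reads are not given in the sources used here, so shared exon bases were counted from the table.

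Counts were tested with edgeR 4.0.16 in R 4.3.3 (TMM factors between 0.982 and 1.02, filterByExpr by group, quasi-likelihood fit, Benjamini-Hochberg adjustment over 13250 genes), which was also tested on simulated data. The SE is the size of the log2 fold change divided by the square root of F. Replicates of a group were not copies of each other, since a chi-square test of their counts gave 17.9 (overexpressing) and 31.3 (control) per degree of freedom. The share of mitochondrial counts was 8.62% and 7.57% in overexpressing replicates 1 and 3, above the 6.29% and 6.68% in control replicates 6 and 8, and the source of that difference was not tested.

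Alternatives were other normalizations and filters, DESeq2 1.42.0, limma-voom (limma 3.58.1), glmTreat, no fold minimum, each library left out, and counts without mitochondrial and the 10 highest genes. Tables and figures used Python 3.11.15, pandas 2.3.3 and matplotlib 3.10.9.

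The 9 genes and the 15 gene lists were chosen with earlier results of these data known. Named were the 9 genes, IRF1, genes of the AP-2, cofactor, GATA, renin-angiotensin, prostaglandin and convertase lists, called genes and defining markers of the other lists, and the 3 genes nearest to TFAP2A and to TFAP2C. Other genes named were chosen after their values were seen. A few list genes enter the counts, medians and sums of their lists but are not reported singly here.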

Additional observations from a re-analysis of the deposited data

How the results depend on the processing

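No paired analysis was possible because the groups share no replicate numbers. With glmTreat, which tests against the fold limit itself, 611 genes were called higher and 603 lower, and of the genes on the lists 12 were called higher and 24 lower, beside 21 and 36 in the main comparison. Without a fold minimum, 1842 genes were called higher and 2054 lower. With each library left out in turn, the lone library of a group being assumed to vary like those of the other, the genes called higher numbered 756 to 1156 and those lower 874 to 1548, lowest in both cases without overexpressing replicate 1. Among the 9 genes 2 to 3 were then called higher and 2 to 3 lower, and among the list genes 16 to 21 and 29 to 41. Among IRF1, the 9 genes and the list genes followed under the alternatives, none reversed a called direction. The genes nearest to TFAP2A and TFAP2C were not followed. Of the values for named genes and lists under the alternatives, 1832 counted as unchanged, 52 were no longer called, 23 became called and 44 moved. A gene called in neither setting counted as unchanged even where its direction turned. For GATA3 the value was 0.07 in the main comparison and -0.29 without control replicate 8. Some list counts that differed also counted as unchanged, such as 13 trophoblast genes called lower against 9 with glmTreat. Of the genes reported here as called higher, TFAP2B, TFAP2E, VLDLR, LNPEP, PCSK1, INHBA, COL1A2, HEY1 and BAMBI were not called with glmTreat. Of those called lower, the same held for ZFPM2, MSX2, ETS2, FGFR2, VGLL3, SLCO2A1, MMP14, LIN28A, TRIM71, ERBB3 and GRHL3. No scaling moved the median of all genes by more than 0.1 on the log2 scale. With 2 libraries per group, differences in genes near the floor, such as TFAP2E and PCSK1, are limited by depth.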
